A study of Arabidopsis thaliana with 24 samples.

Results

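The plastid RNA polymerase genes rpoA, rpoB, rpoC1 and rpoC2 were each represented by 1 probe set, chosen because the array annotation assigned it to that gene and to no other. These 4 probe sets stood among 22810 on the array, and among 69 probe sets assigned to a single plastid-encoded gene. Transcript levels were measured in 10-day-old Arabidopsis thaliana seedlings of the Columbia ecotype, on 24 Affymetrix arrays in 12 groups of 2 biological replicates. The genotypes were wild type (WT), the single mutants atmyc2 and cop1-6, and a line carrying both (atmyc2 cop1-6, the double mutant), and all were kept at 22 °C in constant darkness, in constant blue light (35 µmol per s per m2), or in the same blue light with abscisic acid (ABA, 0.5, with the unit written as µm). AtMYC2 is a transcription factor of light and hormone signalling, and COP1 is a ubiquitin ligase that represses light-grown development in darkness. The questions were how light, the hormone and either mutation altered transcript levels. The labels do not state the kind of atmyc2 allele, and the RNA came from whole seedlings.

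Chloroplasts transcribe their own small genome with a bacterial-type RNA polymerase whose catalytic core is encoded in that genome. The core consists of the α subunit (rpoA), around which the enzyme assembles, the β subunit (rpoB) and the β′ and β″ subunits (rpoC1 and rpoC2), which correspond to separate parts of the single bacterial β′ protein. Nuclear-encoded sigma factors direct the core to promoters, and polymerase-associated proteins join it in green chloroplasts. A phage-type, nuclear-encoded polymerase transcribes the housekeeping genes of the plastid, among them the rpoB-rpoC1-rpoC2 operon, while rpoA lies in a cluster of ribosomal protein genes. The core enzyme is best known for transcribing photosynthesis genes as seedlings green.

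Values are array signals in the arbitrary linear units of the deposited table. They compare arrays for 1 probe set and do not rank the genes against each other. The dim level used below, 19.1, is the 40th percentile of all signals on the 24 arrays. All 4 probe sets had a group mean above it in at least 1 group, but rpoB only in groups grown in light. In whole seedlings, fewer cells or plastids and less RNA per cell cannot be told apart. Separation of 2 groups of 2 arrays is common among the 16196 probe sets tested below. Its share ran from 33.7% (double mutant against cop1-6 in blue light) to 81.1% (blue light against darkness in atmyc2).

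For rpoA, the dark signals of the 2 replicates were 330.9 and 128.7 in WT, 222.2 and 186.6 in atmyc2, 217.0 and 482.6 in cop1-6, and 546.9 and 670.4 in the double mutant. In blue light rpoA gave 686.8 and 1194.2 in WT, 793.3 and 1575.4 in atmyc2, 701.6 and 1370.6 in cop1-6, and 1435.9 and 1098.7 in the double mutant. With ABA the rpoA signals were 1861.0 and 1248.0, 1649.1 and 1508.4, 1249.9 and 1533.4, and 1877.4 and 1395.8 in the same order of genotypes. The 8 dark arrays thus lay between 128.7 and 670.4, below all 16 arrays from light. Ordered by group mean, rpoA ran from 1637 in the double mutant with ABA to 204.4 in atmyc2 in darkness. Of the 11 pairs of neighbours in that order, 9 overlapped in their replicates; the breaks lay below WT in blue light and below the double mutant in darkness.

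For rpoB, the dark signals were 8.4 and 13.4 in WT, 6.5 and 7.6 in atmyc2, 6.6 and 8.3 in cop1-6, and 4.3 and 11.4 in the double mutant, all under the dim level. Blue light gave rpoB signals of 7.0 and 34.1 in WT, 14.6 and 36.3 in atmyc2, 26.8 and 53.2 in cop1-6, and 27.5 and 53.1 in the double mutant. With ABA they were 92.6 and 77.6, 82.7 and 72.3, 23.6 and 61.9, and 49.7 and 35.6. The first replicates of WT and atmyc2 in blue light stayed under the dim level, and only 1 of 11 neighbouring pairs of groups was separated, the pair of atmyc2 with ABA (mean 77.5) and cop1-6 with ABA (42.8). No order among the dark groups can be read from signals this low.

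For rpoC1, darkness gave 23.9 and 19.8 in WT, 42.1 and 39.1 in atmyc2, 193.1 and 246.1 in cop1-6, and 319.9 and 284.1 in the double mutant. In blue light rpoC1 gave 384.7 and 1052.0 in WT, 623.5 and 832.8 in atmyc2, 486.2 and 1011.4 in cop1-6, and 693.7 and 1208.8 in the double mutant. With ABA the signals were 1421.1 and 1366.6, 1302.3 and 1077.5, 640.8 and 912.5, and 784.7 and 670.3. The 4 dark groups did not overlap one another, with means in the order WT, atmyc2, cop1-6 and double mutant from the lowest. Groups of 2 did not overlap for 58.8% of probe sets in atmyc2 against WT in darkness. The share was 61% in cop1-6 against WT and 49.1% in the double mutant against cop1-6. The steps from WT to atmyc2 and from cop1-6 to the double mutant were not called. The 4 blue-light groups all overlapped. WT with ABA had the highest mean (1394) and was the only ABA group separated from its neighbour.

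For rpoC2, darkness gave 22.8 and 12.8 in WT, 22.2 and 16.2 in atmyc2, 55.7 and 91.0 in cop1-6, and 154.0 and 94.9 in the double mutant. Blue light gave 159.4 and 387.1 in WT, 256.3 and 343.1 in atmyc2, 241.8 and 465.2 in cop1-6, and 256.8 and 414.1 in the double mutant. With ABA rpoC2 gave 1040.1 and 707.6, 723.3 and 548.5, 436.4 and 766.3, and 549.9 and 455.9. WT and atmyc2 overlapped in darkness near the dim level, both cop1-6 lines lay above them, and every ABA group had a higher mean than every blue-light group. The breaks in the order lay below WT in blue light, below the double mutant in darkness and below cop1-6 in darkness.

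**Figure D1:**
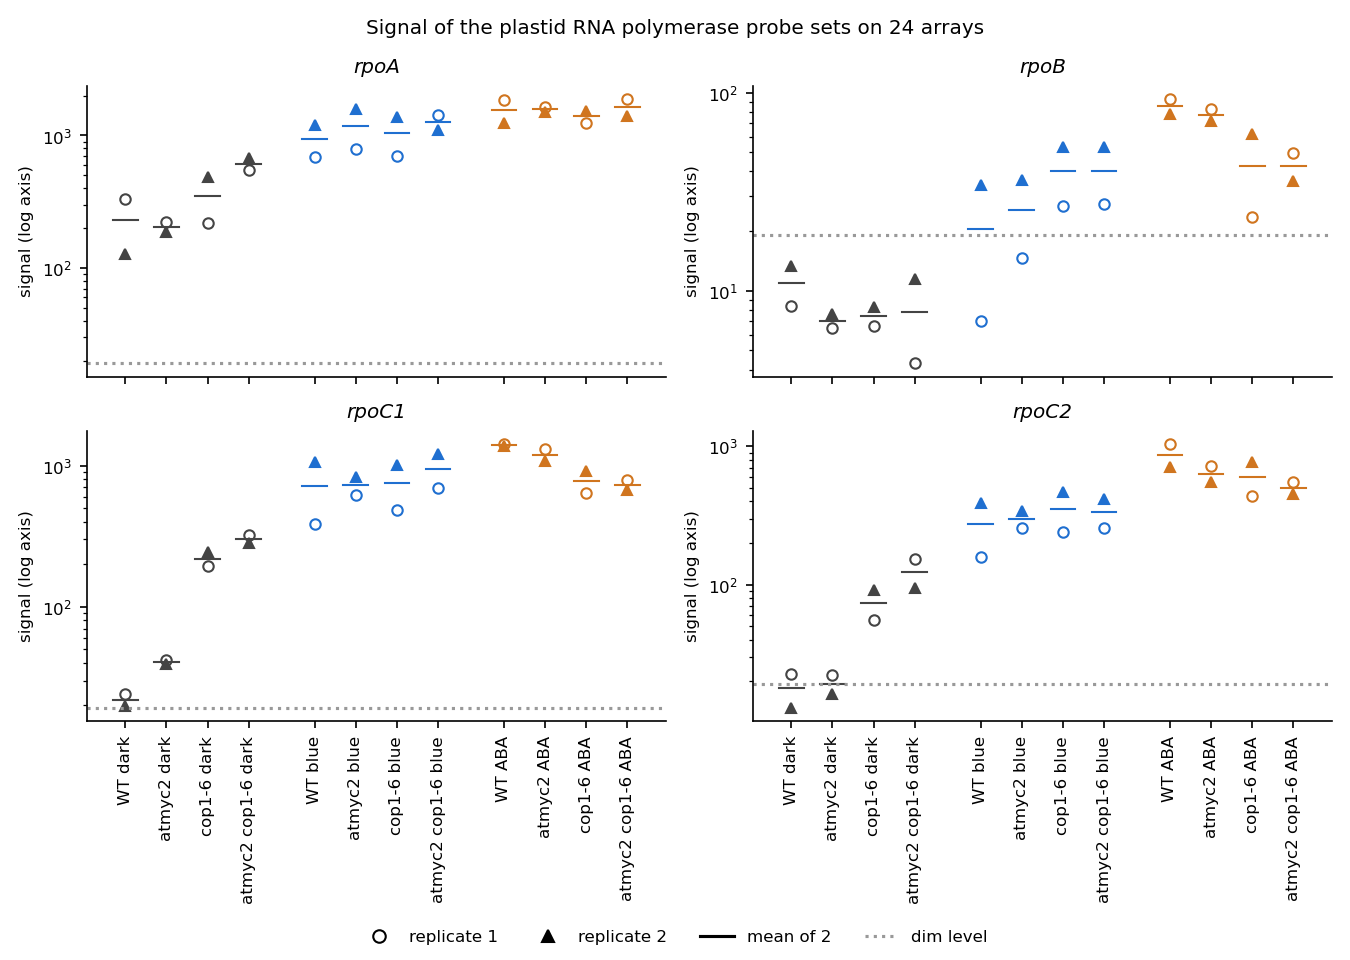
Signal (linear array units, log axis) of each polymerase probe set on the 24 arrays, by condition (black, darkness; blue, blue light; orange, blue light with ABA) and genotype, with replicate 1 as open circles, replicate 2 as filled triangles, the mean of 2 as a bar and the dim level of 19.1 dotted. The dark rpoC1 means run from 21.9 in WT to 302 in the double mutant, while all rpoB dark signals lie under it.

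Replicates of blue-light groups were spread widely, in a shared direction. The second replicate exceeded the first in all 4 genotypes for rpoB, rpoC1 and rpoC2, and in 3 of 4 for rpoA. The ratio of the second to the first reached 4.87 for rpoB, 2.73 for rpoC1, 2.43 for rpoC2 and 1.99 for rpoA. The labels do not say that a replicate number marks a shared batch. Where nothing states separate cultures, the p-values below measure only the spread between these samples.

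Blue light against darkness was tested with limma on log2(signal + 1), with p-values adjusted by the Benjamini-Hochberg method over 16196 probe sets and a threshold of 0.05. In WT, 3 of the 4 genes were higher in blue light, against 23.7% of all tested probe sets. The β′ gene rpoC1 rose from a mean of 21.9 ± 2.90 to 718.4 ± 472 (SD, n = 2), a log2 fold change of 4.81 ± 0.39 (SE, adjusted p = 2.96e-08). The β″ gene rpoC2 rose by 3.78 ± 0.45 (adjusted p = 3.13e-06), and the α gene rpoA rose by 2.13 ± 0.47 (adjusted p = 0.00144). The change of rpoB was 0.53 with a 95% interval from -0.78 to 1.84 (adjusted p = 0.516), so this probe set set no close bound on its light response in WT. The median of the 4 genes was 2.96, beside -0.02 for all tested probe sets. As the dark signals of rpoC1 and rpoC2 lay near the dim level, their fold depends on the pseudocount: with 19.1 in place of 1 the log2 changes in WT were 4.01 and 2.88.

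In atmyc2 all 4 genes were higher in blue light, against 34.4% of all probe sets. Of these, rpoB passed the filter on dim probe sets only through light-grown groups, so its light call adds no support. The rpoC1 signal rose by 4.12 ± 0.39 on the log2 scale (limma adjusted p = 1.48e-07), rpoC2 by 3.90 ± 0.45 (adjusted p = 1.55e-06) and rpoA by 2.45 ± 0.47 (adjusted p = 0.000335). The rpoB call in atmyc2 (1.59 ± 0.62, adjusted p = 0.0385) was the least firm. It was lost with the pseudocount at 19.1 (0.72, adjusted p = 0.0813), with quantile normalization (1.44, adjusted p = 0.0683), and without the first dark array (1.49), the second dark array (1.69) or the second blue-light array of atmyc2 (0.96). Quantile normalization moved the median change of all probe sets in this comparison from 0.28 to 0.01.

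In cop1-6 all 4 genes were higher in blue light, against 30.6% of probe sets. Here too rpoB had dark signals under the dim level and was tested only through light-grown groups, so its call adds no support. The log2 changes were 1.60 ± 0.47 for rpoA (adjusted p = 0.00904), 2.21 ± 0.62 for rpoB (adjusted p = 0.00637), 1.68 ± 0.39 for rpoC1 (adjusted p = 0.00163) and 2.22 ± 0.45 for rpoC2 (adjusted p = 0.000554). The rpoA call was lost without the first dark array (1.02, adjusted p = 0.147) or the second blue-light array of cop1-6 (1.11, adjusted p = 0.109). The rpoB call was lost without that second blue-light array (1.73, adjusted p = 0.0741), and its value with the pseudocount at 19.1 was 1.12.

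In the double mutant 3 genes were higher in blue light, against 19.9% of probe sets: rpoB by 2.28 ± 0.62 (limma adjusted p = 0.00757), rpoC1 by 1.60 ± 0.39 (adjusted p = 0.00360) and rpoC2 by 1.42 ± 0.45 (adjusted p = 0.0180). The rpoA change was 1.05 with an interval from 0.06 to 2.04 (adjusted p = 0.0860). It passed when only the arrays of the 2 groups were fitted (adjusted p = 0.00564). Without the second blue-light array of the double mutant none of the 3 passed (rpoB 1.81, rpoC1 1.20, rpoC2 1.08). Without its first dark array rpoB did not pass (1.66), and without its second dark array rpoC2 did not (1.08). With the pseudocount at 19.1 the rpoB change was 1.12. As in the other genotypes, rpoB was under the dim level in darkness and tested only through light-grown groups, so its call adds no support.

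**Figure D2:**
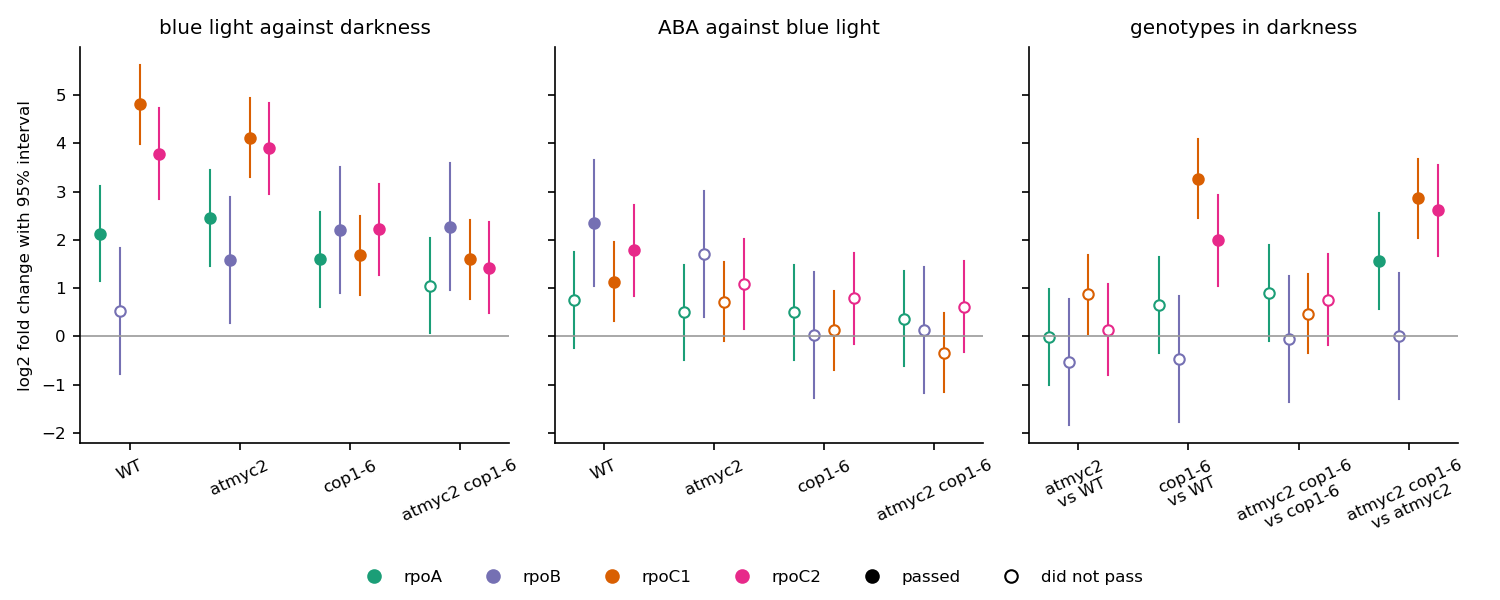
Log2 fold changes of the 4 polymerase genes with 95% intervals for blue light against darkness, ABA against blue light, and the genotype comparisons in darkness. Filled points passed the adjusted threshold of 0.05 and open points did not; rpoC1 and rpoC2 changed with light by 4.81 and 3.78 in WT but by 1.68 and 2.22 in cop1-6.

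The genotype comparisons that passed for these genes were dark ones, in which 1 line carried cop1-6 and the other did not. Against WT, cop1-6 had 2 of the 4 genes higher, beside 16.2% of all probe sets. There rpoC1 stood 10.1 times higher by the ratio of means (219.6 against 21.9; log2 3.27 ± 0.39, limma adjusted p = 8.48e-06), and rpoC2 4.12 times higher (73.4 against 17.8; 1.99 ± 0.45, adjusted p = 0.00299). With the pseudocount at 19.1 these log2 differences were 2.54 and 1.31. The mean of 12 spiked-in control probe sets, 941 and 1023 on the WT arrays and 368 and 278 on those of cop1-6, moved with the same comparison, and its part in the result was not tested. The rpoA difference was 0.65 (interval -0.34 to 1.64, adjusted p = 0.322), with overlapping replicates. The rpoB difference was -0.47 (interval -1.78 to 0.84, adjusted p = 0.616), between signals under the dim level in both groups.

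Against atmyc2 in darkness, the double mutant had 3 genes higher, beside 28.8% of probe sets: rpoC1 by 2.86 ± 0.39 (limma adjusted p = 1.83e-05), rpoC2 by 2.61 ± 0.45 (adjusted p = 0.000175) and rpoA by 1.57 ± 0.47 (adjusted p = 0.0124). The rpoA call was lost without the second atmyc2 array (1.44, adjusted p = 0.0695) or the second double-mutant array (1.42, adjusted p = 0.0723). The rpoB difference was 0.01 (interval -1.30 to 1.32). The root marker EXPA7, described below, moved with the same comparison (-3.61, limma adjusted p = 0.00679), and its part in the result was not tested.

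None of the 4 genes passed for atmyc2 against WT in darkness, where 11% of all probe sets did and 1 gene had an unadjusted p under 0.05. That gene was rpoC1, with means of 40.6 and 21.9 that did not overlap (0.87, interval 0.05 to 1.69, limma adjusted p = 0.169). Groups of 2 did not overlap for 58.8% of probe sets in this comparison, for 61% in cop1-6 against WT and for 49.1% in the double mutant against cop1-6. None passed for the double mutant against cop1-6 in darkness either, where 1.67% of probe sets did and no gene had an unadjusted p under 0.05. Those log2 differences ran from -0.05 for rpoB (interval -1.36 to 1.26) to 0.90 for rpoA (interval -0.09 to 1.89). No gene passed for the atmyc2 by cop1-6 interaction in darkness, which 13.1% of probe sets did. The largest interaction estimate was 0.92 for rpoA, with an interval from -0.48 to 2.32.

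In blue light no polymerase gene passed in any of the 4 genotype comparisons, none had an unadjusted p under 0.05, and the background differed widely. The limma calls over all probe sets were 0.0123% for atmyc2 against WT, 35.2% for cop1-6 against WT, 0.0185% for the double mutant against cop1-6 and 9.65% for the double mutant against atmyc2. For cop1-6 against WT, the comparison with the most calls, rpoC1 differed by 0.14 (interval -0.68 to 0.96), rpoA by 0.11 (-0.88 to 1.11), rpoC2 by 0.43 (-0.51 to 1.37) and rpoB by 1.21 (-0.10 to 2.52). Without the second WT array the rpoB difference was 2.28, against a remaining WT signal of 7.0, under the dim level. The interaction in blue light was passed by 0% of probe sets and by none of the 4 genes.

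The light responses themselves were compared between genotypes. The response of rpoC1 was smaller in cop1-6 than in WT by a log2 difference of -3.13 ± 0.55 (limma adjusted p = 0.000382), and smaller in the double mutant by -3.21 ± 0.55 (adjusted p = 0.000447). The rpoC2 response was smaller in the double mutant by -2.36 ± 0.63 (adjusted p = 0.0111), while its difference in cop1-6 was -1.56 (interval -2.90 to -0.23, adjusted p = 0.0646). These were the 1 and 2 members called, beside 17.2% of probe sets lower for cop1-6 and 15.4% for the double mutant. Of the 63 other tested plastid-encoded genes, 53 were lower in the first comparison (median -3.17) and 51 in the second (median -3.04), so the rpoC1 differences lay close to the plastid medians. The rpoC2 call in the double mutant was lost without the second WT dark array (-1.97, adjusted p = 0.0562), the second WT blue-light array (-1.72, adjusted p = 0.0552) or the first dark array of the double mutant (-2.01, adjusted p = 0.0520). With the pseudocount at 19.1 the rpoC1 differences were -2.40 and -2.46, and the rpoC2 difference in the double mutant was -1.58. These contrasts share the WT dark arrays with the dark comparison above.

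The rpoA and rpoB responses were not shown to differ from WT. For rpoA the differences were -0.53 (interval -1.93 to 0.87) in cop1-6 and -1.08 (-2.48 to 0.33) in the double mutant. For rpoB they were 1.68 (-0.17 to 3.53) and 1.75 (-0.10 to 3.60), opposite in sign to those of rpoC1. Without the second WT blue-light array the rpoB differences were 2.75 and 2.82, with a remaining WT blue-light signal of 7.0, under the dim level. All rpoB dark signals were under it too, so these rpoB differences add no support. In cop1-6 the rpoC2 difference passed without the first WT dark array (-1.96), the first WT blue-light array (-2.20) or the second cop1-6 blue-light array (-2.03). None of the 4 genes passed, and none had an unadjusted p under 0.05, for atmyc2 minus WT, where 7.94% of probe sets were called.

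With ABA against blue light in WT, 3 of the 4 genes were higher, beside 19.3% of probe sets. The β gene rpoB rose from 20.6 ± 19.2 to 85.1 ± 10.6 (log2 2.36 ± 0.62, limma adjusted p = 0.00738). The rpoC2 signal rose by 1.78 ± 0.45 (adjusted p = 0.00569) and rpoC1 by 1.13 ± 0.39 (adjusted p = 0.0322), while the rpoA change was 0.75 (interval -0.24 to 1.74, adjusted p = 0.226). The calls rested on single arrays. Without the first WT blue-light array none of the 3 passed, at 1.29 for rpoB, 0.41 for rpoC1 and 1.15 for rpoC2, and without the first WT ABA array none passed either (2.23 for rpoB and 1.51 for rpoC2). The rpoC1 call was also lost without the second WT ABA array (1.16) and when only the arrays of the 2 groups were fitted (adjusted p = 0.0806). With the pseudocount at 19.1 the rpoB change was 1.48.

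In the mutants no ABA call was made for the 4 genes, and the differences between genotypes were not called. The limma calls over all probe sets were 21.8% in atmyc2, 13.4% in cop1-6 and 23.3% in the double mutant, and the members with an unadjusted p under 0.05 were 2, 0 and 0. In atmyc2 the changes were 1.70 for rpoB (interval 0.39 to 3.01, adjusted p = 0.0589), 1.08 for rpoC2 (0.14 to 2.03, adjusted p = 0.0922), 0.72 for rpoC1 (-0.10 to 1.54) and 0.50 for rpoA (-0.49 to 1.49). The rpoB change passed with the pseudocount at 19.1 (adjusted p = 0.0194), with the replicate number as a block (adjusted p = 0.0199) and without the second atmyc2 blue-light array (2.33, adjusted p = 0.0403). Fitted on the arrays of the 2 groups alone, rpoB, rpoC1 and rpoC2 all passed.

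The 2 arrays of cop1-6 with ABA were unlike each other. Their signals correlated at 0.945 over all probe sets, replicate 1 was closest to a double-mutant ABA array (0.969), and replicate 2 to a WT ABA array (0.956). In cop1-6 the ABA changes of the 4 genes were 0.50 for rpoA, 0.02 for rpoB, 0.12 for rpoC1 and 0.78 for rpoC2. Without replicate 1 they were 0.64, 0.70, 0.38 and 1.19, and without replicate 2 they were 0.35, -0.66, -0.13 and 0.38, with none passing either way. In the double mutant the changes ran from -0.34 for rpoC1 (interval -1.15 to 0.48) to 0.62 for rpoC2 (-0.33 to 1.56). The rpoB ABA response was -2.34 relative to WT in cop1-6 (interval -4.19 to -0.49, limma adjusted p = 0.110) and -2.22 in the double mutant (-4.07 to -0.37, adjusted p = 0.118). Without replicate 1 of cop1-6 with ABA the cop1-6 difference was -1.66 (adjusted p = 0.295), and without replicate 2 it passed at -3.01 (adjusted p = 0.0406). Without the second WT blue-light array the differences in cop1-6 and the double mutant were -3.40 and -3.29 for rpoB and -1.73 and -2.19 for rpoC1. The remaining WT blue-light signal of rpoB was 7.0, under the dim level. Over all probe sets 0% were called for atmyc2 minus WT, 6.71% for cop1-6 minus WT and 9.27% for the double mutant minus WT, with 0, 1 and 2 members at an unadjusted p under 0.05.

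With ABA no genotype comparison passed for any of the 4 genes. The limma calls over all probe sets were 0.037% for atmyc2 against WT, 4.85% for cop1-6 against WT, 0.253% for the double mutant against cop1-6 and 4.74% for the double mutant against atmyc2. The 1 unadjusted p under 0.05 belonged to rpoC1 in cop1-6 against WT (-0.86, interval -1.68 to -0.05, adjusted p = 0.244). That rpoC1 difference was -0.61 without replicate 1 of cop1-6 with ABA and -1.12 without replicate 2. Fitted on 2 groups alone, the double mutant was lower than atmyc2 for rpoB (-0.86, adjusted p = 0.00799) and rpoC1 (-0.71, adjusted p = 0.00211). The interaction with ABA was passed by 0% of probe sets and by no polymerase gene.

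Other array measures moved with the growth condition, and some also with the genotype in darkness. The signal of the 25S ribosomal RNA control lay between 4.6 and 189.9 on the dark arrays, between 28.5 and 96.3 on the blue-light arrays and between 769.5 and 2762.5 on the ABA arrays. The mean of 12 spiked-in control probe sets lay between 223 and 1023, 4.47 and 13.3, and 85.3 and 137, in the same order. Within darkness this spike-in mean also split by genotype, from 923 to 1023 in WT and atmyc2 and from 223 to 368 in both cop1-6 lines. The log2 ratio of the 3′ to the 5′ GAPDH control probe set, a measure of RNA integrity and labelling, ran from 0.84 to 1.26 in WT and atmyc2 in darkness, stood at 0.85 and 0.54 in cop1-6 and at 0.66 and 0.51 in the double mutant in darkness, and ran from 0.39 to 0.74 in blue light and from 0.25 to 0.74 with ABA. Of 14 tested mitochondrial genes, 8 were higher with ABA in WT (median 1.84), 6 in atmyc2, 3 in cop1-6 and 1 in the double mutant, where 2 were lower. The part of these measures in the light results, the ABA results and the dark cop1-6 results was not tested, and processing differences between conditions cannot be told apart from the conditions. Of the 5 green-tissue markers 1 was measured: PSAN, a photosystem I subunit, ran from 31.0 to 43.7 in WT and atmyc2 in darkness, from 683.0 to 725.2 in both cop1-6 lines in darkness and from 1142.9 to 2522.1 in the light. Of the 5 root markers 1 was measured, EXPA7, and of 10 seed markers and 1 etiolated-cotyledon marker none. In blue light EXPA7 gave 32.3 and 20.5 in WT, 18.2 and 12.5 in atmyc2, 25.3 and 15.7 in cop1-6, and 38.4 and 7.9 in the double mutant. With ABA it gave 45.9 and 67.4, 61.3 and 46.0, 4.2 and 76.4, and 3.9 and 5.4 in the same order. It thus lay above the blue-light arrays in WT and atmyc2, below them in the double mutant, and far apart on the 2 cop1-6 arrays. None of its ABA changes was called (1.08 in WT, 1.75 in atmyc2, -0.06 in cop1-6 and -1.74 in the double mutant). Groups of 2 did not overlap for 70.7% of probe sets in WT, 72.6% in atmyc2 and 62.4% in the double mutant. In darkness EXPA7 gave 9.9 and 22.5 in WT and 52.2 and 28.2 in atmyc2. The dark signals were 17.8 and 10.1 in cop1-6, and 0.4 and 6.4 in the double mutant. For the double mutant against atmyc2 in darkness, EXPA7 was called at -3.61 ± 0.98 (limma adjusted p = 0.00679). There 16.2% of all probe sets were called lower. Blue light against darkness in the double mutant was also called, at 2.54 ± 0.98 (adjusted p = 0.0498). The part of EXPA7 in the dark, light and ABA results was not tested. Neither MYC2 nor COP1 had an annotated probe set, so the labels could not be checked by the targeted genes.

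The other plastid-encoded genes set the scale for these changes. Of 65 others with a probe set, 63 were tested. In WT 61 of them were higher in blue light, with a median log2 change of 4.01, above those of rpoA and rpoC2. The rpoC1 change exceeded that of 43 of the 63, rpoC2 of 28 and rpoA of 10, the first 2 starting from dark signals near the dim level. Many of the 63 also had WT dark means under the dim level, among them psbD at 4.35 and rpl14 at 2.40. Medians and places that use WT dark signals, in this paragraph also for cop1-6 against WT, thus depend on the pseudocount. No place is given for rpoB where its dark signals, all under the dim level, enter the change. In cop1-6, where 31 were higher and 2 lower at a median of 0.55, the changes of rpoA, rpoC1 and rpoC2 exceeded those of 51, 54 and 56. In the dark comparison of cop1-6 with WT, 56 of the 63 were higher, with a median of 3.00, and 5 lay below rpoA, 19 below rpoC2 and 39 below rpoC1.

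By class, the ABA comparison in WT had its calls among ribosomal protein genes more than among photosynthesis genes, a difference that was not tested. There 10 of 14 tested ribosomal protein genes were higher with ABA and none was lower (median 1.29). Of all 63 others, which include these 14, 13 were higher and 4 lower (median 0.11). The ATP synthase, photosystem II and NDH classes had 0 of 6, 0 of 15 and 0 of 9 called, at medians of 0.11, -0.06 and -0.14. Photosystem I had 1 of 7 higher and 1 lower, and cytochrome b6f had 1 of 6 higher, petN at 2.11, and 1 lower. The class of other plastid housekeeping genes had 1 of 5 higher and 2 lower, at a median of -0.41. The rpoB change of 2.36 exceeded 61 of the 63 others, although 1 of its WT blue-light signals was under the dim level, that of rpoC2 57, that of rpoC1 53 and that of rpoA 47. In blue light against darkness the same ribosomal protein genes were all higher in WT (14 of 14, median 3.61). With ABA in the mutants, 4 of the 14 were higher in atmyc2, 2 in cop1-6 and 2 in the double mutant (medians 0.72, 0.30 and 0.46). The class counts were not recomputed with single arrays left out.

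**Figure D3:**
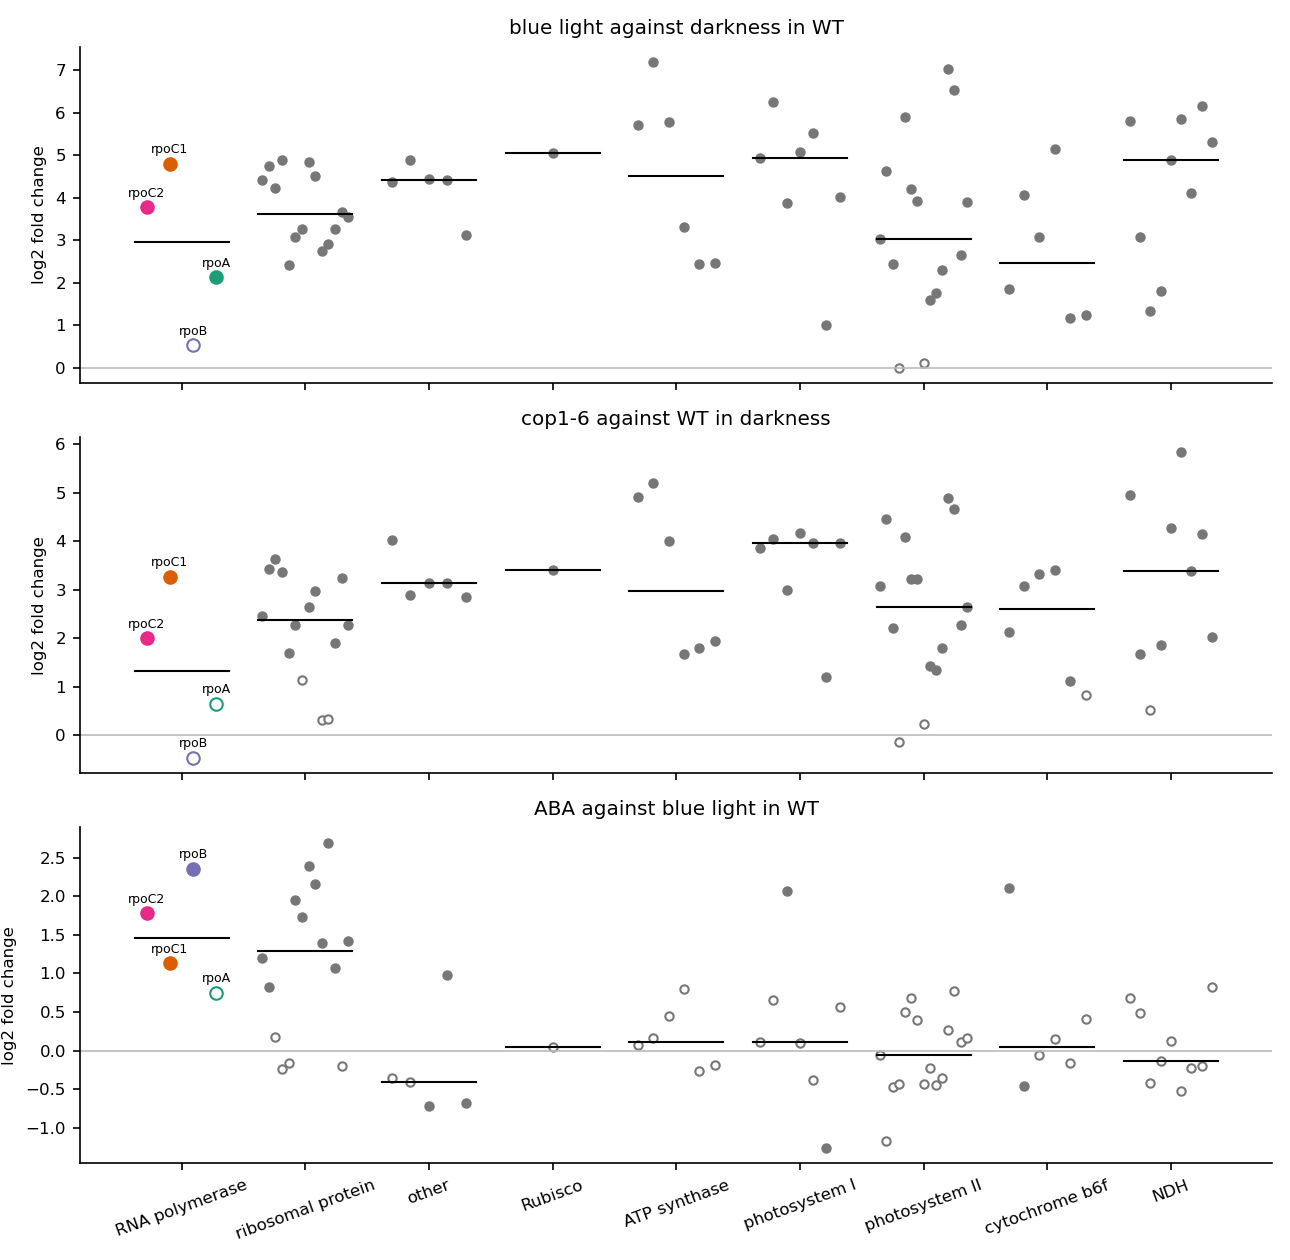
Log2 fold change of every tested plastid-encoded gene, by class, for blue light against darkness in WT (top), cop1-6 against WT in darkness (middle) and ABA against blue light in WT (bottom). Each point is 1 gene, filled where it passed the adjusted threshold of 0.05, and the bar is the class median; with ABA the ribosomal protein genes have a median of 1.29 and the photosystem II genes of -0.06.

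Each polymerase signal was also set against the median of those 63 genes on the same array. On this scale rpoA fell in WT from 3.06 and 1.31 log2 units above the median in darkness to -0.28 and -0.12 in blue light, a change of -2.39 ± 0.44 (limma adjusted p = 1.72e-05). The rpoB change was -3.99 ± 0.49 (adjusted p = 5.79e-09), which starts from dark signals under the dim level. For rpoC1 it was 0.29 (interval -0.33 to 0.92), and for rpoC2 -0.73 ± 0.35 (adjusted p = 0.0432). The rpoC2 call was lost under 7 alternatives, among them without the first WT dark array (-0.14), without the first WT blue-light array (-0.41) and with a stricter filter on dim probe sets (-0.46). The 63 genes themselves were spread widely: 40 of them passed the same test in WT, 10 above and 30 below their median, a share of 63.5%. Of all tested probe sets 98.3% passed, because the plastid median itself had moved, so the 3 calls among 4 genes are to be read against the share among plastid genes. With dark signals under the dim level, the rpoB call mainly carries the move of that median and adds no support.

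In atmyc2 in blue light, rpoC1 gained 1.11 ± 0.31 on the other plastid genes (limma adjusted p = 0.00124), rpoC2 gained 0.89 ± 0.35 (adjusted p = 0.0170) and rpoB lost ground (-1.42 ± 0.49, adjusted p = 0.00817). Among the 63 others 58.7% passed there, and 92.1% of all probe sets. The rpoB loss starts from dark signals under the dim level. The rpoC2 gain was 0.21 with the pseudocount at 19.1 and did not pass, nor with quantile normalization (0.72) or without the second dark (0.68) or second blue-light array of atmyc2 (0.81). The rpoB loss did not pass without the first blue-light array of atmyc2 (-0.92) or with the stricter filter (-1.12). In cop1-6 only rpoC2 passed (1.12 ± 0.35, adjusted p = 0.00693), beside 46.0% of the other plastid genes and 58.8% of all probe sets, and it did not without the first dark (0.74) or second blue-light array (0.94). In the double mutant none passed, beside 47.6% and 66.4%, with 1 unadjusted p under 0.05, that of rpoB (1.05, interval 0.05 to 2.06).

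In darkness the relative level of rpoA fell from WT to cop1-6 by 2.69 ± 0.44 (limma adjusted p = 3.57e-06), and that of rpoC2 by 1.34 ± 0.35 (adjusted p = 0.000579), while rpoC1 moved with the other plastid genes (-0.07, interval -0.69 to 0.56). The rpoB value was -3.80, between signals under the dim level. Here 55.6% of the other plastid genes and 98% of all probe sets passed. In atmyc2 against WT the relative differences were -1.47 ± 0.44 for rpoA, -1.98 ± 0.49 for rpoB, -1.31 ± 0.35 for rpoC2 and -0.58 for rpoC1. The first 3 passed, beside 44.4% of the others and 85.8% of all probe sets. The rpoB signals were under the dim level in both groups. Its relative difference thus carries the move of the plastid median, and its call says nothing about rpoB. Without the first WT dark array, on which rpoA was 2.57 times its level on the second, the rpoA difference in atmyc2 was -0.59 and that of rpoC2 -0.72, and neither passed. In cop1-6 the rpoC2 difference was then -0.75 and did not pass. None passed for the double mutant against cop1-6, beside 3.17% of the others and 0.543% of all probe sets, with 2 members at an unadjusted p under 0.05.

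**Figure D4:**
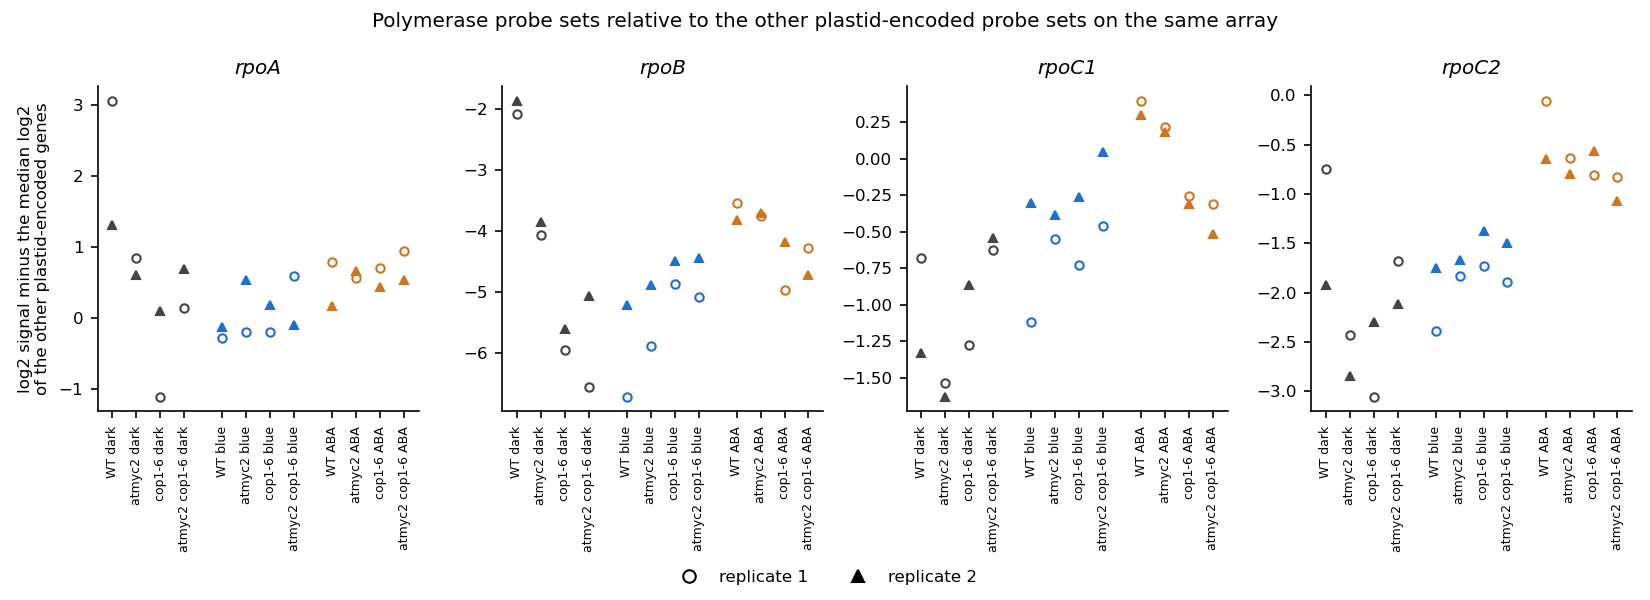
Log2 signal of each polymerase gene minus the median log2 signal of the 63 other tested plastid genes on the same array, by group (black, darkness; blue, blue light; orange, ABA; open circles, replicate 1; filled triangles, replicate 2). Each panel has its own vertical axis; rpoA starts at 3.06 and 1.31 in dark WT and lies between -0.28 and 0.95 on all arrays from light.

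The place of the genes along the plastid genome gave 2 settings, taken from the gene order of the TAIR10.1 annotation. In that order rpoC2, rpoC1 and rpoB follow one another after atpF, atpH, atpI and rps2 and before petN and psbM. The order gives places on the genome and not the direction of transcription. In WT blue light atpF, atpH, atpI and rps2 changed by 7.19, 5.77, 3.30 and 4.76, and petN and psbM by 1.86 and -0.00. The WT dark means of atpF, atpI and petN were under the dim level, so their folds depend on the pseudocount. With ABA in WT atpF, atpH, atpI and rps2 changed by 0.16, 0.45, 0.80 and 0.82, below rpoC2, rpoC1 and rpoB at 1.78, 1.13 and 2.36. The petN change was 2.11 and that of psbM -0.43.

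Around rpoA lie the cytochrome genes petB and petD on one side and ribosomal protein genes on the other. The light changes in WT were 1.16 and 1.24 for petB and petD and 2.13 for rpoA. For rpl36, rpl14, rpl16 and rps3 they were 3.27, 4.85, 4.52 and 2.76. The WT dark means of petD, rpl14 and rpl16 were under the dim level, so their folds depend on the pseudocount. With ABA petB and petD changed by -0.15 and 0.40, rpoA by 0.75, and the 4 ribosomal protein genes by 1.74, 2.40, 2.16 and 1.39. The rpoA change thus lay between those of the named genes on either side in both comparisons, although its ABA change was not called. For cop1-6 against WT in darkness it did not. There rpoA differed by 0.65, petB and petD by 1.11 and 0.83, and the 4 ribosomal protein genes by 1.14, 2.63, 2.97 and 0.32.

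**Figure D5:**
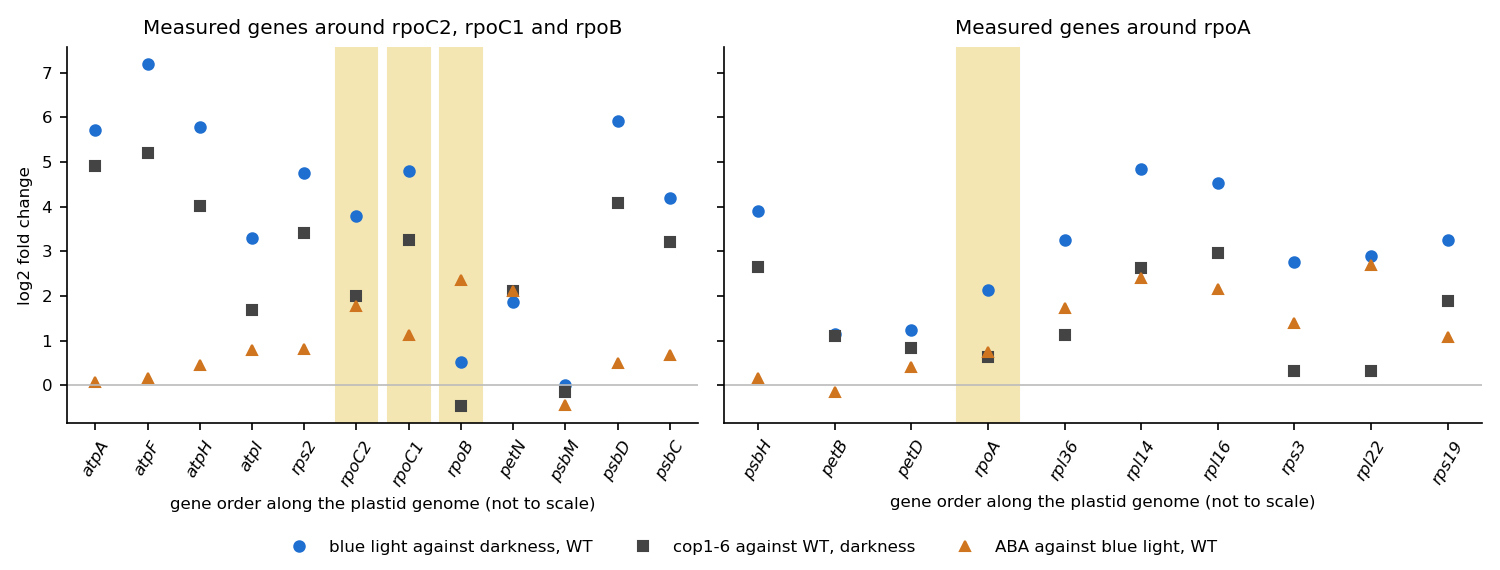
Log2 fold change of the measured genes in their order along the plastid genome, around rpoC2, rpoC1 and rpoB (left) and around rpoA (right), with the polymerase genes shaded. Circles are blue light against darkness in WT, squares cop1-6 against WT in darkness and triangles ABA against blue light in WT; distances are not to scale.

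Across the 24 arrays, which share the 12 groups, the log2 signals of rpoC1 and rpoC2 had a Pearson r of 0.97, those of rpoA and rpoC2 0.96 and those of rpoA and rpoC1 0.92. With rpoB, the probe set of lowest signal, r was 0.80 for rpoA, 0.75 for rpoC1 and 0.82 for rpoC2. These are descriptions of 24 arrays that fall into dark and light sets, without a test. Among 8817 probe sets with 1 gene outside the 4, those most like rpoA were rpl16 (0.96), rps3 (0.96), AT1G28510, AT1G06510 and rpl36 (0.95 each), and the next nuclear one was PAM68, a photosystem II assembly factor. Those most like rpoC1 were clpP, a protease subunit gene (0.99), rps2 (0.99), atpH (0.99), atpF and ycf3, an assembly factor of photosystem I (both 0.98). For rpoC2 they were rpl16 (0.98), rps19 (0.98), ycf3 (0.98), rps15 (0.97) and AT1G06510 (0.97). The 5 most like rpoB were all nuclear, from AT1G22060 (0.94) to AT1G65280 (0.91).

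Of the nuclear genes of plastid transcription, few had an annotated probe set. Of 3 phage-type polymerases 1 was measured, RPOTmp, which is targeted to mitochondria and plastids, and none of 6 sigma factors or 13 polymerase-associated proteins was analysed here. RPOTmp gave 3.4 and 16.5 in dark WT, 17.3 and 11.4 in WT blue light and 13.0 and 7.5 in WT with ABA, all under the dim level. It passed for blue light in cop1-6 (1.35 ± 0.52, limma adjusted p = 0.0350), where 8.2 and 19.1 in darkness stood beside 36.9 and 30.7 in blue light. In that comparison 30.6% of all probe sets were higher. The dark group means of RPOTmp were all under the dim level. It was thus tested only through light-grown groups, and its call adds no support. In WT its light change was 0.78 (adjusted p = 0.232), and for cop1-6 against WT in darkness the difference was 0.63 (adjusted p = 0.386).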

How the data were processed

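The deposited values were linear signal intensities, 1 for each probe set on each array, which the authors made in GCOS 1.4 (per the submitters' processing notes). Probe-level files were not used here. Per the labels' protocols, Trizol extraction was followed by biotin labelling of cRNA from 5 µg of total RNA. Means trimmed by 2% at both ends differed between arrays by 1.01 times, under the limit of 1.1, so the arrays were used as deposited. Values were log2(signal + 1), the pseudocount being the rounded 10th percentile. Of 22810 probe sets, 64 controls were left out and 16196 tested, which had 1 or more group means above 19.1, the 40th percentile of all signals. The 12 group means were fitted in limma 3.58.1 (R 4.3.3) on 24 arrays, with empirical Bayes moderation (trend and robust) and Benjamini-Hochberg adjustment within each of 29 comparisons. In 7 further comparisons the median log2 of the other plastid-encoded genes was first subtracted on each array. An array's precision is limited by the 2 arrays per group.

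Genes were named from the platform annotation, which can be old (13513 probe sets with 1 gene, 503 with several, 8794 with none), and RefSeq's TAIR10.1 gene table was used for names and gene order only. No sequence of these genes was used here. Named genes were the 4 members, their plastid neighbours, for each the 5 most alike probe sets and 3 nuclear ones by Pearson r, and nuclear members of the lists of plastid transcription; RPOTmp, the markers and the genes beside the members were named as lists or positions, whatever their values. The members and lists were chosen with earlier results of these data known. On simulated data for blue light against darkness in WT (16196 probe sets), the fit recovered 51% of 100 changes of log2 1 and 85% of 100 changes of log2 2, with 14 false calls among 15996. In the measured data 45.9% of probe sets were called in that comparison. The adjusted threshold depends on this share, so the simulated rates need not hold for the measured data. Alternatives were 2 other pseudocounts, 2 other filters on dim probe sets, quantile normalization, plain moderation, the replicate number as a block, a fit of only the compared arrays, and the omission of single arrays.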

Additional observations from a re-analysis of the deposited data

Results flagged for a closer look

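Among the polymerase genes, 3 light responses passed a test of the difference between genotypes, as did those of most other plastid-encoded genes (53 of 63 lower in cop1-6 than in WT, median -3.17, and 51 of 63 lower in the double mutant, median -3.04). The rpoC1 response to blue light differed by -3.13 log2 units between cop1-6 and WT (SE 0.55, limma adjusted p = 0.000382), and by -3.21 between the double mutant and WT (SE 0.55, adjusted p = 0.000447). The rpoC2 response differed by -2.36 between the double mutant and WT (SE 0.63, adjusted p = 0.0111). In each case the blue-light replicates overlapped those of WT and the dark replicates lay above those of WT. For cop1-6 against WT, groups of 2 did not overlap for 61% of all tested probe sets in darkness and 68.5% in blue light. No such share was computed for the double mutant against WT. The WT dark signals of rpoC2 (22.8 and 12.8) and rpoC1 (23.9 and 19.8) lay near the dim level of 19.1, where the size of a fold depends on the pseudocount.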

How the results depend on the processing

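The 4 genes gave 38 called values, and over all alternatives these kept their direction and stayed past the threshold 424 times, kept their direction without passing 44 times and reversed 0 times. The called values include rpoB calls from dark signals under the dim level. They also include calls relative to the other plastid genes, whose median itself had moved. These counts therefore do not measure how firm the polymerase results are. The 106 values that were not called passed under an alternative 32 times of 1404 and changed sign 118 times. Fitting only the arrays compared moved the number of polymerase genes called from 0 to 3 for ABA in atmyc2, from 0 to 1 for atmyc2 against WT in darkness, from 0 to 2 for the double mutant against atmyc2 with ABA and, relative to the other plastid genes, from 0 to 1 for the double mutant against cop1-6 in darkness; the cause was not tested. The pseudocount at 19.1 gave 1 call for ABA in atmyc2. With no pseudocount, the calls relative to the other plastid genes were 2 in place of 1 for light in cop1-6 and 1 in place of 0 in the double mutant.

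Deviations of same-numbered samples from their group means correlated at -0.16 to 0.31 over 66 pairs of groups (median -0.01), with 8 over 0.1, and at -0.02 to 0.19 in the 6 pairs of blue-light groups, with 4 over 0.1. Not every pair exceeded 0.1, and the labels name no shared batch, so the numbers were not taken to pair the samples. In blue light the second replicates still had the higher median signal of other plastid genes in all 4 genotypes (1073 to 1172, against 749 to 941). With the replicate block 1 gene was called for ABA in atmyc2, and relative to the other plastid genes 2 for light in cop1-6 and 1 in the double mutant.

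Leaving out 1 array gave the following numbers of called genes. For light they ran from 3 to 4 in atmyc2, 2 to 4 in cop1-6 and 0 to 3 in the double mutant. For ABA they ran from 0 to 3 in WT and 0 to 1 in atmyc2. The double mutant against atmyc2 in darkness gave 2 to 3, and cop1-6 against WT in blue light 0 to 1. The light responses minus that of WT gave 1 to 2 in cop1-6 and in the double mutant, and the ABA responses 0 to 2 in both. Relative to the other plastid genes, light gave 2 to 3 in WT and in atmyc2, 0 to 1 in cop1-6 and in the double mutant, and in darkness atmyc2 against WT gave 1 to 4 and cop1-6 against WT 2 to 3.

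Quantile normalization moved the median of all probe sets by over 0.1 in light for atmyc2 (-0.27), cop1-6 (-0.15) and the double mutant (-0.10), for ABA in WT (-0.10) for the double mutant against atmyc2 in darkness (-0.14), for the light response of atmyc2 minus WT (-0.16), for the interaction in darkness (-0.13) and for the ABA response of the double mutant minus WT (0.11). The share of calls that were higher went from 62.9% to 51.2% for light in atmyc2, from 60.2% to 43.4% for the light response of atmyc2 minus WT, from 65.5% to 55.3% for the interaction in darkness and from 26.8% to 40.4% for the double mutant against cop1-6 with ABA. In blue light it went from 50% to 0% for atmyc2 against WT and from 33.3% to 0% for the double mutant against cop1-6, among few calls. Signals under the dim level, rpoB in darkness above all, limit the folds.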
